A study of Mus musculus with 30 samples.

Results

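The genes followed here act in calcium handling or form the large-conductance potassium channel, and were measured in cultured aortic smooth muscle cells of the mouse. The 10 genes are Cacna1c, Itpr1, Atp2a2, Atp2b1, Atp2b4, Stim1, Orai1, Trpc1, Kcnma1 and Kcnmb1. They were chosen by name for their roles, with earlier results of these data known. Each matched 1 of the 78334 gene identifiers in the deposited table. Of the 10 genes, 8 held enough counts to be tested in both sequencing runs, and Kcnma1 and Kcnmb1 did not.

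The study compared 30 libraries in 9 groups, to ask what knockdown or overexpression of the long noncoding RNA CASC15 and the agents angiotensin II and PDGF-BB do to these cells. All groups, controls included, were cells held in serum-free medium for 48 h and transfected for at least 24 h. In run 3, cells with a control GapmeR (an antisense oligonucleotide that directs RNase H to its target RNA) were left untreated, given angiotensin II at 10 ng/ml, or given PDGF-BB at 10 to 30 ng/ml, each for 24 h. Cells with a GapmeR against the transcript labelled long CASC15 were left untreated or given the same angiotensin II, with 4 libraries in each of these 5 groups and no PDGF-BB in knockdown cells. In run 2, all untreated, the groups were control GapmeR (2 libraries), the GapmeR against the transcript labelled total CASC15 (2), a control plasmid (3) and a plasmid for total CASC15 (3). In the titles the number after CASC counts up from library to library, so that 1 library each of the total knockdown, overexpression and angiotensin II long knockdown groups, and none of the untreated long knockdown group, is titled CASC15. The sample descriptions give the same shorthand for all libraries of a group, and the libraries were grouped by it. CASC15 is used here as the target's name throughout, which the titles alone do not settle. Each library carries a batch label from P16 to P19 that follows its replicate number, so a batch holds at most 1 library of a group. The labels do not say that batches are separate animals or isolates, and the p-values then measure only the spread between these libraries. The growth text speaks of mouse and rat cells, and no strain, sex or age of the animals is given.

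Contraction of a smooth muscle cell follows its cytosolic calcium. Calcium enters through the voltage-gated channel whose pore is Cacna1c and is released from the endoplasmic reticulum through the inositol trisphosphate receptor Itpr1. The pump Atp2a2 (SERCA) returns it to the reticulum, and the pumps Atp2b1 and Atp2b4 (PMCA) send it out of the cell. When the store is empty, the sensor Stim1 opens the plasma membrane channel Orai1, and Trpc1 is a cation channel linked to the same entry. Kcnma1 is the pore, and Kcnmb1 the smooth muscle accessory subunit, of the BK channel, which lets potassium out when calcium and voltage rise and so opposes contraction. Cultured smooth muscle cells are known to lose contractile genes and BK channel expression as they begin to divide.

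Promoter sequences are shown for 3 genes that stand at the ends of the range: both BK channel genes, which gave almost no reads, and Atp2b1, which had the highest counts of the 10. Each is the RefSeq window of 250 bases before to 50 after a gene start in GRCm38.p6, on the strand of the gene, with every match to GGGCGG or its complement CCGCCC in capitals. The Kcnma1 window lies at chr14:24004156-24004455 on the minus strand, the Kcnmb1 window at chr11:33962763-33963062 on the plus strand, and the window of the first Atp2b1 start at chr10:98914392-98914691 on the plus strand.
Kcnma1: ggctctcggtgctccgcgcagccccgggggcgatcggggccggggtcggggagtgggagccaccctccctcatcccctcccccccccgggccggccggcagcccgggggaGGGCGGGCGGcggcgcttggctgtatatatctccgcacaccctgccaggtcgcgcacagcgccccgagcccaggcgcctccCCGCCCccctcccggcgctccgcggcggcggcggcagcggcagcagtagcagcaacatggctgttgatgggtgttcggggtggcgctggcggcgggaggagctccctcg
Kcnmb1: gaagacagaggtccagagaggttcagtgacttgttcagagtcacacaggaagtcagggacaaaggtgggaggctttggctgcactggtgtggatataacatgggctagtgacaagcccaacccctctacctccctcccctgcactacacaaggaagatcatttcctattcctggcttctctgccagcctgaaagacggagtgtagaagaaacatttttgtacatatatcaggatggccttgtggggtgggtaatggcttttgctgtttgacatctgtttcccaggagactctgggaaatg
Atp2b1: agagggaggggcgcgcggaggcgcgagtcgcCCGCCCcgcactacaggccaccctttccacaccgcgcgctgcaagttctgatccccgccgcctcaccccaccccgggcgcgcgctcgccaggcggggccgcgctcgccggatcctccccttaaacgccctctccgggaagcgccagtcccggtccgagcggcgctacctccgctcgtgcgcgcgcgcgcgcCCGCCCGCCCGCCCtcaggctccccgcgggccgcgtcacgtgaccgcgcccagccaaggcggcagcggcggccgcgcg

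The windows differ in base composition. Kcnma1 was 78.0% G or C with 36 CpG dinucleotides, Atp2b1 79.3% with 54, and Kcnmb1 49.7% with 1, beside medians of 52.7% and 7 over 32851 mouse windows. A match to GGGCGG on either strand, overlapping matches allowed, was present in the Kcnma1 and Atp2b1 windows and not in that of Kcnmb1. RefSeq windows were found for 8 of the 10 genes, 11 windows in all, and Itpr1 and Atp2a2 had no entry. Of the 11 windows, 7 held GGGCGG, against 35.7% of all windows, 0 held TATAAA, against 13.6%, and 0 held a CArG box, the serum response element, against 1.63%. These matches describe letters only, and no measurement of binding was available here.

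Libraries of run 2 held 18007199 to 21881959 counts, those of run 3 15771490 to 30362047. The labelled cell type was checked on 8 smooth muscle markers. Over all libraries Cald1 reached 417 to 855 CPM (counts per 1000000 of the scaled library total), Acta2 96.5 to 441 and Smtn 42.2 to 103, whereas Tagln stayed at 0.234 to 3.45, Cnn1 at 0 to 0.224, Lmod1 at 0.156 to 1.78, Myh11 at 0 to 6.67 and Des at 0 to 2.33. Cnn1 never exceeded 5 counts, whereas Myh11, Tagln, Des and Lmod1 reached up to 149, 77, 52 and 38 counts. Of 5 fibroblast markers, Col1a1 stood at 1275 to 3635 CPM and Dcn at 563 to 2180, whereas Pi16 was at 2.7 to 77.5, Pdgfra at 1.83 to 65.7 and Lum at 0 to 5.17. Of 5 endothelial markers Cdh5 and Tie1 never exceeded 3 counts, and Vwf, Pecam1 and Kdr reached at most 6.14, 3.27 and 0.876 CPM. Of 5 leukocyte markers Ptprc and Adgre1 never exceeded 3 counts, and Cd68, Csf1r and Lyz2 reached at most 15.9, 4.52 and 1.46 CPM. CASC15 was read as 2610307P16Rik, a pairing that no table used here states. Its mean was 2.87 ± 0.561 CPM (SD, n = 4) in untreated long knockdown cells and 5.52 ± 0.53 in their controls, and 716 ± 174 (n = 3) with the expression plasmid and 6.42 ± 2.34 with the control plasmid. In the libraries labelled total knockdown it was 9.01 ± 1.02 (n = 2) against 7.02 ± 0.913 in their controls, which goes against that label.

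Levels of the 10 genes spanned a wide range in untreated control cells of run 3. Per kilobase of exon (RPKM, mean ± SD, n = 4), the pumps led: Atp2a2 stood at 54.9 ± 2.69 and Atp2b1 at 29.7 ± 0.997. The release channel Itpr1 followed at 5.48 ± 0.153, then Stim1 at 4.53 ± 0.58, Orai1 at 2.12 ± 0.365, Trpc1 at 1.21 ± 0.0943, Atp2b4 at 0.436 ± 0.1 and Cacna1c at 0.05 ± 0.00704. The ranges of the 4 libraries overlapped between Itpr1 and Stim1 only, so these neighbours did not differ beyond their spread. With the length of the longest transcript in place of all exons, Atp2b1 (63.4 RPKM) and Atp2a2 (58.8) overlapped and changed places, as did Stim1 (10.8) and Itpr1 (10.2), and Orai1 (2.6) overlapped with Trpc1 (2.13).

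**Figure D1:**
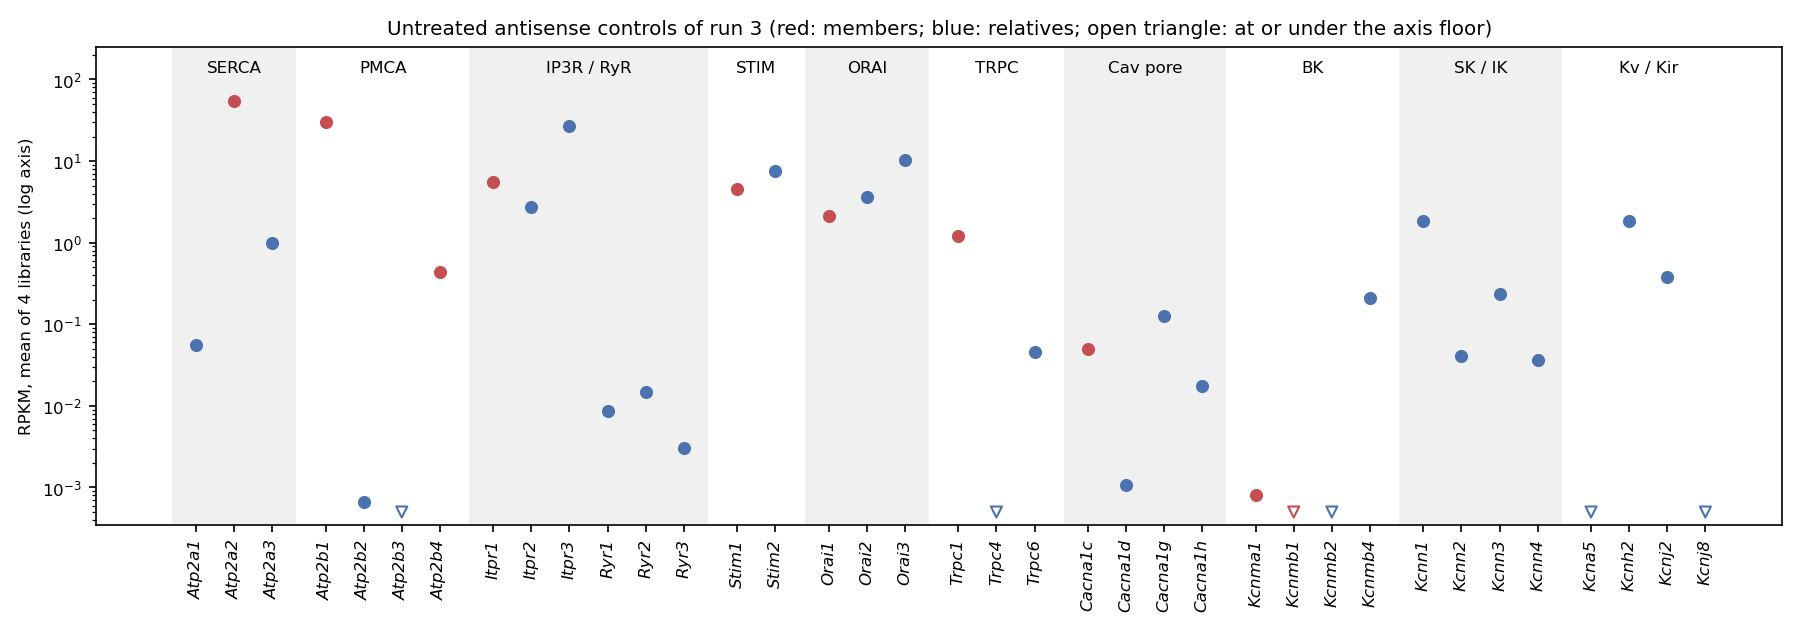
Mean RPKM of the 10 genes (red) and of their relatives (blue) in the 4 untreated control libraries of run 3, on a log axis, grouped by protein family; open triangles mark genes at or under the axis floor. Atp2a2 and Atp2b1 stand highest, at 54.9 and 29.7, and Kcnma1 and Kcnmb1 lowest of the 10.

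Within each family the genes followed here were not always the most abundant relative. Itpr3, another inositol trisphosphate receptor, stood at 26.6 ± 2.4 RPKM, above Itpr1, and Itpr2 at 2.7 ± 0.192. Orai3 stood at 10.4 ± 0.375 and Orai2 at 3.6 ± 0.297, both above Orai1. Stim2, at 7.52 ± 0.445, stood above Stim1 per length of all exons and under it per length of the longest transcript (7.82 and 10.8 RPKM). Among voltage-gated calcium channel pores, the T-type Cacna1g was at 0.127 ± 0.0494 RPKM. The SERCA pump Atp2a3 was at 0.99 ± 0.108, far under Atp2a2. Of other TRPC channels, Trpc4 had 0 counts in all libraries, Trpc5 at most 1 and Trpc6 at most 38. Pln and Sln, small inhibitors of SERCA, reached at most 3 and 7 counts in any library.

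Both BK channel genes were at or near the limit of detection. Kcnmb1 had 0 counts in each of the 30 libraries, and 3 counts, the one-sided limit used here for a count of 0, correspond to 0.102 to 0.19 CPM depending on the library. Kcnma1 had 19 counts in all, from 0 to 6 per library, and was at 0 in 23 of 30 libraries. Its highest value was 6 counts, 0.34 CPM (exact Clopper-Pearson 95% interval 0.125 to 0.74 CPM), in replicate 3 of the plasmid control, from batch P19. The next was 5 counts in replicate 1 of the overexpression group, 0.25 CPM, with an interval of 0.081 to 0.583. In run 3 a single count appeared, in replicate 2 of the untreated controls. No fold is given for either gene, and the intervals and limits cover counting error only. Among the other 30 potassium channel genes listed, 11 never exceeded 3 counts, among them the KATP channel genes Kcnj8, Kcnj11 and Abcc9 and the voltage-gated Kcna5, and 11 were tested in each run. The BK accessory subunit Kcnmb4 reached 35 counts at most and the small-conductance channel Kcnn1 325.

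**Figure D2:**
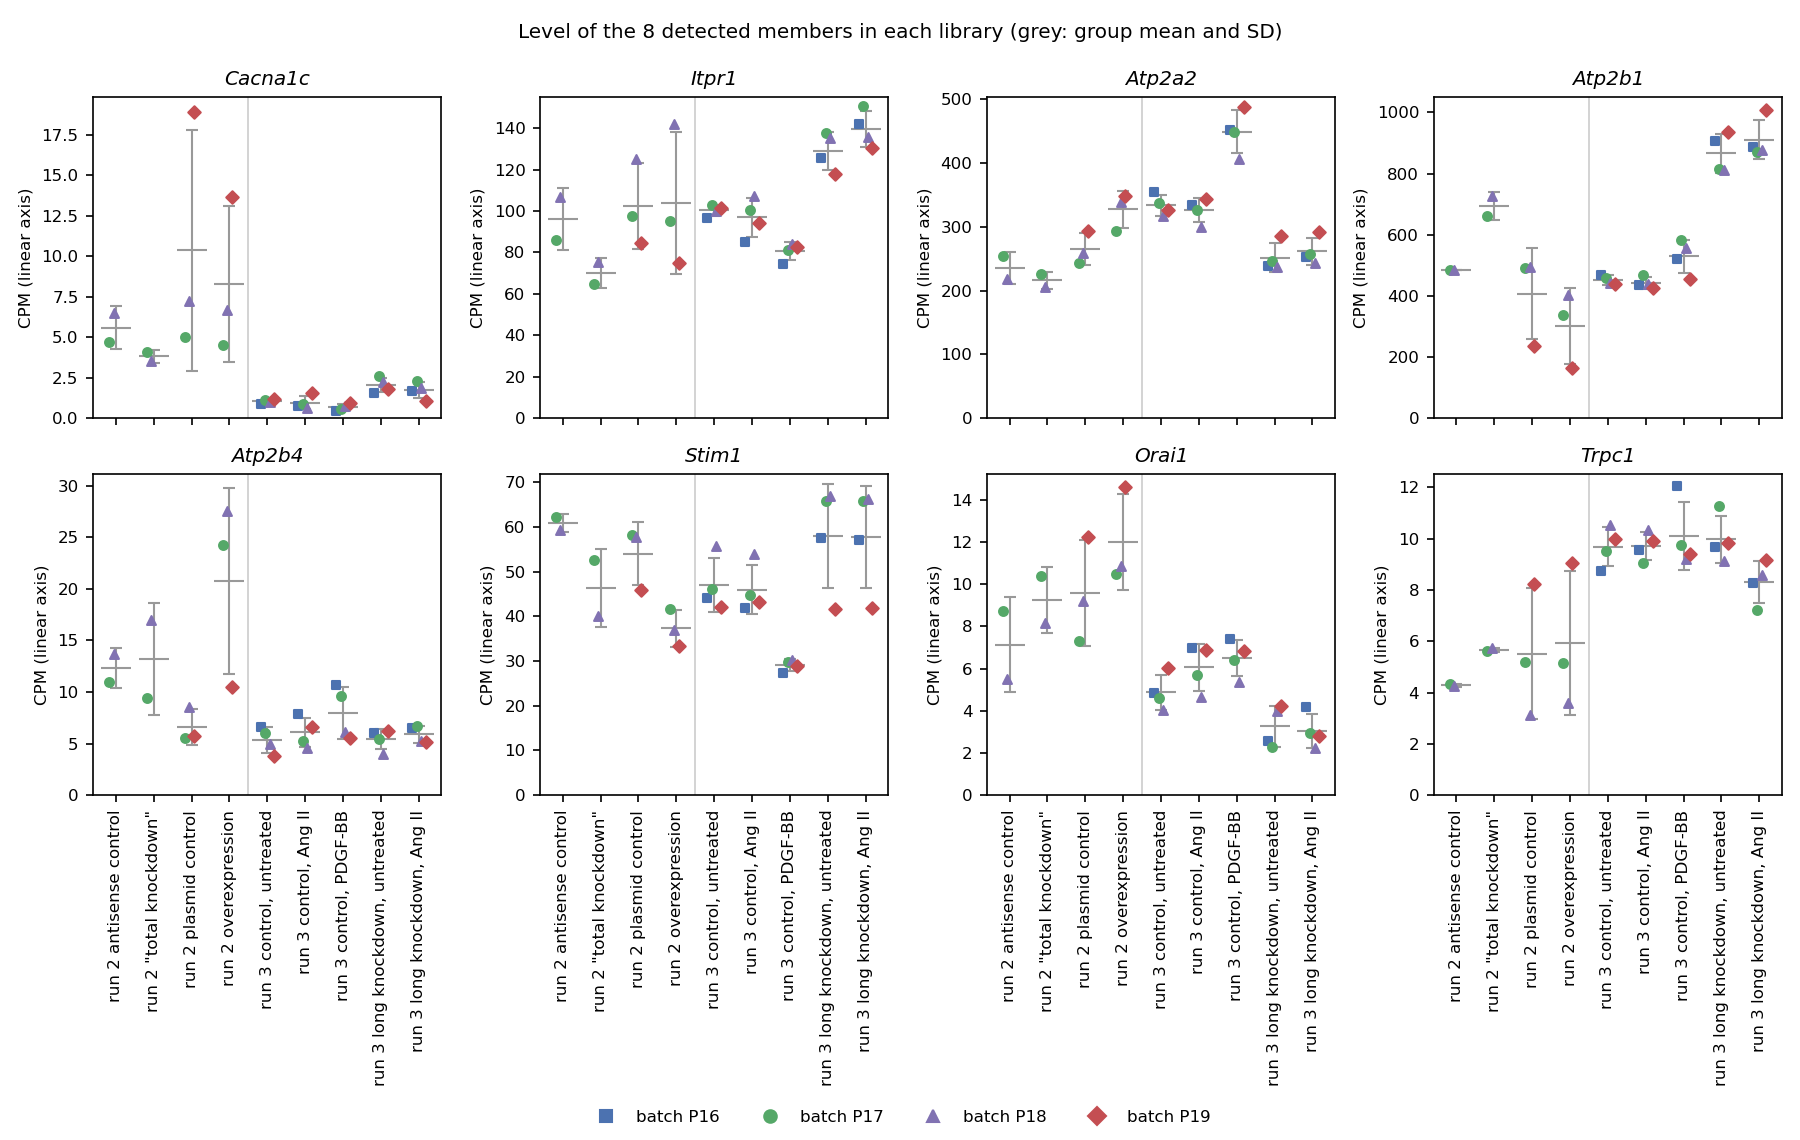
CPM of the 8 genes tested in each of the 30 libraries (linear axes), by group, with run 2 left and run 3 right of the grey line; symbols mark the batch, grey bars the group mean and SD. Atp2b1 in both long knockdown groups (810 to 1007) lies above every other run 3 group, and in run 2 batch P19 stands apart for Cacna1c and Atp2b1.

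Levels also lay apart between runs and batches. Cacna1c lay between 0.449 and 2.61 CPM in run 3 and between 3.54 and 18.9 in run 2, which were sequenced separately and are not tested against each other. The highest Cacna1c values of run 2 came from batch P19, at 18.9 CPM in the plasmid control and 13.7 with overexpression, against 4.49 to 7.21 in the other libraries of those groups. In the same P19 libraries Atp2b1 was lowest, at 235 (plasmid control) and 163 (overexpression), against 339 to 494. P19 was also the batch with the highest summed level of 5 proliferation genes (Mki67, Top2a, Ccnb1, Plk1, Bub1b) in both of those groups, at 276 and 407 CPM, against 48.5 to 145 in the other libraries of those groups. The part of batch in these levels was not tested.

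PDGF-BB, the platelet-derived mitogen, changed pumps and the store sensor in different directions in control cells of run 3. Stim1 and Itpr1 fell, whereas Atp2a2, Atp2b1 and Atp2b4 rose, each by less than 2-fold. In all, 5 of the 8 genes tested passed an adjusted p of 0.05 in the quasi-likelihood test of edgeR, with p-values adjusted by Benjamini and Hochberg's method over 15103 genes, 3 higher and 2 lower. Over all genes 23.6% were called higher and 20.0% lower. The median log2 fold change was 0.14 over the 8 genes and -0.02 over all genes, and the median size without sign was 0.42 and 0.33.

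Stim1, the calcium sensor of the reticulum, stood at 44.1, 46.0, 55.7 and 42.1 CPM in the 4 untreated control libraries (batches P16 to P19 in that order) and at 27.4, 29.8, 30.2 and 29.0 with PDGF-BB. Every treated library lay under every control. The log2 fold change was -0.69 ± 0.15 (SE, n = 4), 1.61-fold lower, with an edgeR adjusted p of 0.000889. For the release channel Itpr1 the controls lay at 96.6, 103, 100 and 102 CPM and the treated libraries at 74.7, 81.0, 84.3 and 82.9. The groups did not overlap, and the log2 fold change was -0.31 ± 0.07 (edgeR adjusted p = 0.00109).

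Atp2a2, the reticulum pump, moved the other way. It stood at 355, 338, 316 and 326 CPM in controls and 451, 449, 406 and 489 with PDGF-BB, without overlap. The log2 fold change was 0.43 ± 0.07, 1.35-fold higher (edgeR adjusted p = 9.34e-05). Atp2b1, which exports calcium, went from 470, 460, 442 and 438 CPM to 521, 583, 557 and 456. It was higher in 4 of 4 batches, but the P19 treated library lay within the control range. Its log2 fold change was 0.23 ± 0.07 (edgeR adjusted p = 0.0155), and without replicate 2 of the PDGF-BB group it was 0.18 with an adjusted p of 0.0651, past the threshold no longer. Its relative Atp2b4 stood at 6.59, 6.01, 4.99 and 3.79 CPM in controls and 10.7, 9.6, 6.11 and 5.55 with PDGF-BB. The groups overlapped, although each batch was higher with treatment, by 0.58 ± 0.22 on the log2 scale (edgeR adjusted p = 0.0418). That Atp2b4 call was lost without untreated control replicate 2, 3 or 4 or PDGF-BB replicate 1 or 2, with values of 0.40 to 0.62 and adjusted p of 0.0563 to 0.179. In a fit of the PDGF-BB and untreated control groups alone, 3 of the 8 genes remained called, beside 44.8% of all genes, and Atp2b1 (adjusted p = 0.0602) and Atp2b4 (0.0833) were not.

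The remaining 3 genes were not called. Orai1, the store-operated channel, lay at 4.83, 4.6, 4.04 and 6.03 CPM in controls and 7.4, 6.42, 5.37 and 6.82 with PDGF-BB, a log2 difference of 0.41 ± 0.21 (edgeR adjusted p = 0.124). It was higher in 4 of 4 batches, and with the batch as a replicate block its adjusted p was 0.0499, so that 6 of 8 genes were called, against 54.5% of all genes in that fit. Cacna1c, at 0.882 to 1.22 CPM in controls and 0.449 to 0.967 with PDGF-BB, was lower in 4 of 4 batches by -0.63 ± 0.32 (adjusted p = 0.122, or 0.106 with the block). Trpc1 differed by 0.06 ± 0.11 (adjusted p = 0.688).

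The summed level of the 5 proliferation genes was 1418 to 1503 CPM with PDGF-BB and 91.0 to 198 in the untreated controls. All 5 were called higher, beside 23.6% of all genes. The summed level of the 8 smooth muscle markers was 699 to 808 CPM with PDGF-BB and 903 to 1127 without. Of 5 skeletal and cardiac muscle markers, which summed to 60.1 to 64.2 CPM with PDGF-BB and 16.2 to 23.5 without, Tnnt2 made up nearly all (62.1 and 18.7 CPM on average), and Myh6 and Myog never exceeded 3 counts. Endothelial (0.305 to 0.896 CPM with PDGF-BB, 1.05 to 2.22 without) and leukocyte markers (0.916 to 1.84 and 0.748 to 1.51) were near 0, and neuron and glia markers summed to 0.865 to 1.46 CPM with PDGF-BB and 1.29 to 2.64 without. Fibroblast markers summed to 3036 to 4293 CPM with PDGF-BB and 3444 to 3938 without. The part of these in the calcium genes was not tested, and in bulk RNA fewer cells expressing a gene cannot be told apart from less RNA per cell.

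Among 108 further genes of calcium and potassium handling, 66 were tested in run 3 and 37 were called with PDGF-BB, 22 higher and 15 lower, beside 23.6% and 20.0% of all genes. With the replicate block 27 were higher and 21 lower, beside 28.3% and 26.2%. The 19 tested calcium buffers, sensors and effectors gave 11 higher and 3 lower, and the 7 genes of mitochondrial calcium uptake 3 higher (5 with the block) and 0 lower. Of 4 calcium-activated potassium channel genes tested, 0 were higher and 3 lower. Atp2a3, another SERCA pump, rose from 5.23 ± 0.572 to 15.2 ± 1.62 CPM (log2 fold change 1.54 ± 0.37, edgeR adjusted p = 0.00253). Cacna2d1, an accessory subunit of voltage-gated calcium channels, rose from 13.1 ± 2.45 to 32.2 ± 8.38 CPM (1.3 ± 0.16, adjusted p = 2.65e-06). Kcnk5, a background potassium channel, and Camk2b, a calmodulin-dependent kinase, rose by 1.25 ± 0.19 and 0.79 ± 0.18 on the log2 scale. Kcnn1, a small-conductance potassium channel, fell from 8.42 ± 1.41 to 3.73 ± 1.17 CPM (-1.17 ± 0.20, adjusted p = 0.000107). Kcnj2, an inward rectifier, fell by 1.53 ± 0.43 on the log2 scale, the calcineurin target Nfatc4 by 1.48 ± 0.43 and the calcineurin inhibitor Rcan2 by 1.62 ± 0.61. Among close relatives of the 10 genes, named after their values were seen, Itpr2 fell (-0.63 ± 0.08, edgeR adjusted p = 2.25e-06) and Itpr3 rose (0.51 ± 0.13, adjusted p = 0.00297), as did Stim2 (0.29 ± 0.11, adjusted p = 0.042) and Orai2 (0.30 ± 0.09, adjusted p = 0.00912).

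**Figure D3:**
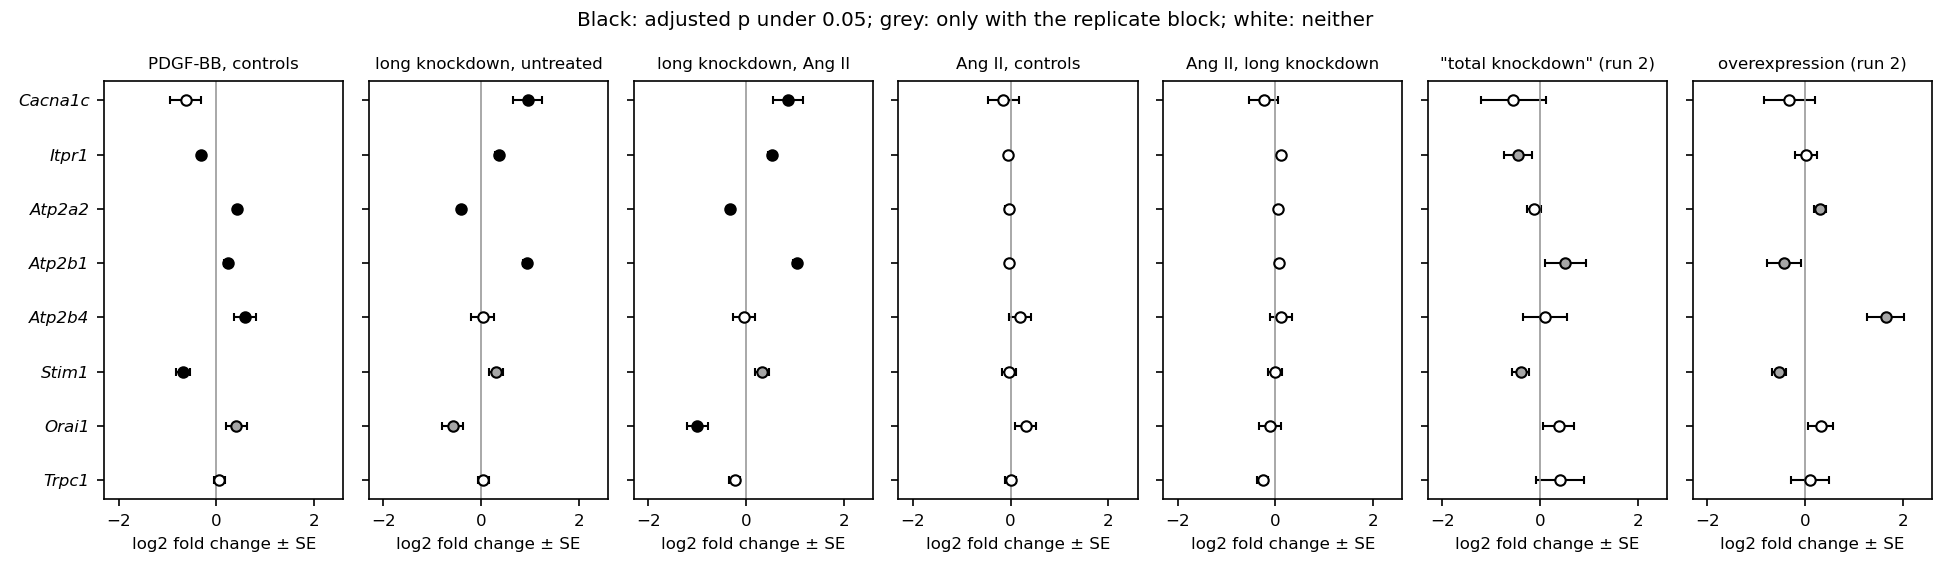
Log2 fold change (points) and SE (bars) of the 8 genes tested in 7 comparisons, one panel each; black points passed an adjusted p of 0.05 without the replicate block, grey only with it, white in neither. Under PDGF-BB Stim1 lies at -0.69 and Atp2a2 at 0.43, and in both long knockdown panels Atp2b1 lies near 1.

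Knockdown of long CASC15 in untreated cells raised the calcium exporter Atp2b1, the release channel Itpr1 and the L-type pore Cacna1c and lowered the reticulum pump Atp2a2. In this comparison with untreated controls, 4 of the 8 genes tested were called, 3 higher and 1 lower, beside 12.3% of all genes called higher and 12.8% lower. With the replicate block, Stim1 and Orai1 were called too, 6 of 8 against 40.6% of all genes. Under angiotensin II, knockdown against control gave 5 of 8 called, 3 higher and 2 lower, beside 13.4% and 13.3% of all genes, and 6 of 8 with the block, beside 41.3%. Without batch P19 both counts were 6, beside 40.0% and 39.9% of all genes. The median log2 fold change over the 8 genes was 0.17 untreated and 0.15 under angiotensin II, and 0.02 and 0.01 over all genes.

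Atp2b1 showed the lowest p of the 8 genes in both. Its untreated values were 906, 815, 810 and 935 CPM in knockdown cells (P16 to P19), against 470, 460, 442 and 438 in controls, an increase of 0.94 ± 0.07 on the log2 scale, 1.92-fold (edgeR adjusted p = 1.88e-08). Under angiotensin II the knockdown libraries held 887, 872, 878 and 1007 CPM and the controls 435, 470, 439 and 428, an increase of 1.04 ± 0.07, 2.06-fold (adjusted p = 4.66e-09). The ranges did not overlap in either condition, and the difference was seen in 4 of 4 batches both times. Atp2b4, the other exporter tested, stood at 5.43 ± 0.996 CPM in untreated knockdown cells and 5.35 ± 1.23 in controls, a log2 difference of 0.03 ± 0.23 (edgeR adjusted p = 0.944), and differed by -0.04 ± 0.23 under angiotensin II (0.915).

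Of the reticulum proteins, Itpr1 rose from 96.6 to 103 CPM in untreated controls to 125, 138, 135 and 118 with knockdown. The log2 fold change was 0.36 ± 0.07 (edgeR adjusted p = 0.000635). Under angiotensin II it stood at 142, 150, 136 and 131 CPM with knockdown and 85.3, 101, 107 and 94.2 in controls (0.53 ± 0.07, adjusted p = 1.24e-05). Atp2a2 fell: the untreated knockdown libraries held 238, 246, 237 and 285 CPM, all under the control range of 316 to 355, with a log2 fold change of -0.41 ± 0.07 (adjusted p = 0.000375). Under angiotensin II it held 253, 258, 243 and 292 CPM against 334, 327, 300 and 343 (-0.32 ± 0.07, adjusted p = 0.00312). For both genes the groups were apart in both conditions, and P19 was the knockdown library nearest to the controls.

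Cacna1c was higher at a low level. It stood at 1.59, 2.62, 2.23 and 1.8 CPM in untreated knockdown cells and 0.882, 1.14, 0.997 and 1.22 in controls, a log2 fold change of 0.95 ± 0.30 (edgeR adjusted p = 0.0244). Under angiotensin II the knockdown libraries held 1.69, 2.32, 1.85 and 1.1 CPM and the controls 0.76, 0.882, 0.642 and 1.54 (0.86 ± 0.31, adjusted p = 0.046). In that condition the P19 pair went the other way, and the groups overlapped. The untreated Cacna1c call was lost without control replicate 1 or 3 or knockdown replicate 2 or 3 (0.82 to 0.91, adjusted p of 0.059 to 0.087). Under angiotensin II it was lost without any one of replicates 1, 2 and 3 of either group (0.69 to 0.87, adjusted p of 0.0796 to 0.155), and in a fit of those groups alone (0.86, adjusted p = 0.102). Without batch P19 that Cacna1c value was 1.34 (adjusted p = 0.00224, edgeR). With no filter on low counts Cacna1c was called in neither condition (adjusted p of 0.0688 and 0.119).

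The store-operated pair differed in sign. Orai1 stood at 2.57, 2.28, 3.97 and 4.25 CPM in untreated knockdown cells and 4.83, 4.6, 4.04 and 6.03 in controls. The difference was -0.58 ± 0.22 on the log2 scale with overlapping groups, an edgeR adjusted p of 0.0557 without the block and 0.0168 with it. Without control replicate 3, knockdown replicate 3 or knockdown replicate 4 the adjusted p was 0.0444, 0.048 and 0.02. Under angiotensin II Orai1 fell to 4.16, 2.97, 2.25 and 2.79 CPM from 6.96, 5.69, 4.67 and 6.91, without overlap and 1.99-fold lower (-0.99 ± 0.22, adjusted p = 0.00223). Stim1 held 57.5, 65.9, 66.9 and 41.6 CPM in untreated knockdown cells and 57.2, 65.8, 66.3 and 41.9 under angiotensin II, against 42.1 to 55.7 and 42.0 to 54.0 in the matched controls. It was higher in batches P16, P17 and P18, and the P19 knockdown library lay just under the control range in both conditions. Its log2 differences were 0.30 ± 0.15 and 0.33 ± 0.15 (edgeR adjusted p = 0.134 and 0.101), and the block gave adjusted p of 0.0127 and 0.00737. Without knockdown replicate 4, from P19, the Stim1 values were 0.43 (adjusted p = 0.0143) and 0.45 (0.0117). Stim2, the other store sensor, named after its values were seen, rose by 0.61 ± 0.11 untreated (edgeR adjusted p = 0.000414) and 0.46 ± 0.11 under angiotensin II (0.00411). Trpc1 differed by 0.04 ± 0.11 (edgeR adjusted p = 0.819) untreated and -0.22 ± 0.11 (0.147) under angiotensin II.

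The 5 proliferation genes summed to 26.3 to 31.7 CPM in untreated knockdown libraries P16 to P18 and 126 in P19, against 91.0 to 198 in controls. Without the block 1 of 5 was lower untreated and 2 of 5 under angiotensin II, and with the block 5 of 5 both times, when 20.6% and 20.9% of all genes were lower. Smooth muscle markers summed to 815 to 982 CPM in untreated knockdown cells and 903 to 1127 in controls, and leukocyte markers to 0.544 to 2.71 and 0.748 to 1.51. Neuron and glia markers summed to 2.65 to 4.58 CPM with knockdown and 1.29 to 2.64 in controls, without overlap, with Rbfox3 and Snap25 at or under 3 counts. The sums of endothelial (1.54 to 3.46 and 1.05 to 2.22 CPM), skeletal and cardiac muscle (6.14 to 21.7 and 16.2 to 23.5) and fibroblast markers (3167 to 3563 and 3444 to 3938) overlapped. Under angiotensin II the proliferation genes summed to 25.7 to 33.4 CPM in knockdown libraries P16 to P18 and 114 in P19, against 104 to 231 in controls. There the sums of all 6 other marker lists overlapped, those of neuron and glia (1.84 to 4.14 CPM with knockdown and 1.29 to 2.55 without), endothelial (1.84 to 3.75 and 0.74 to 1.9) and fibroblast markers (3065 to 3609 and 3591 to 3906) included. The part of these in the calcium genes was not tested. The long knockdown and PDGF-BB comparisons use the same 4 untreated control libraries, so their values are only set side by side: Itpr1 0.36 and -0.31, Atp2a2 -0.41 and 0.43, Atp2b1 0.94 and 0.23.

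Of the 66 further genes tested, 27 were called in untreated knockdown cells, 14 higher and 13 lower, beside 12.3% and 12.8% of all genes. With the replicate block 25 were higher and 17 lower, beside 20.0% and 20.6%. The angiotensin II comparison gave 26, of which 15 rose and 11 fell, beside 13.4% and 13.3%. There the block gave 24 and 12, beside 20.4% and 20.9%. Cacna2d1 rose from 13.1 ± 2.45 to 71.7 ± 6.89 CPM (log2 fold change 2.45 ± 0.16, edgeR adjusted p = 4.03e-09), and by 2.35 ± 0.16 under angiotensin II. Cacnb2, a beta subunit of the same channels, rose by 0.95 ± 0.32 untreated and by 0.91 ± 0.32 under angiotensin II (adjusted p = 0.0376). Kcnj2 rose from 2.08 ± 0.562 to 5.85 ± 1.57 CPM (1.5 ± 0.37, adjusted p = 0.00481), and by 1.44 ± 0.38 under angiotensin II. The BK accessory subunit Kcnmb4 rose from 0.692 ± 0.0825 to 1.4 ± 0.258 CPM (1.01 ± 0.36, adjusted p = 0.045), at a level where Kcnma1, its pore partner, had no count in the knockdown libraries. The ryanodine receptor Ryr2 rose by 1.95 ± 0.53 untreated (adjusted p = 0.0105), and gave 1.46 (0.057) under angiotensin II. Kcnk6, a background potassium channel, fell from 2.61 ± 0.335 to 0.45 ± 0.194 CPM (-2.51 ± 0.30, adjusted p = 3.73e-06) and by 1.96 ± 0.30 under angiotensin II.

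Of the 5 further pumps and exchangers tested, 1 rose and 1 fell in each condition (3 and 1 with the block). For all genes, the shares called higher and lower were 12.3% and 12.8% untreated (20.0% and 20.6% with the block) and 13.4% and 13.3% under angiotensin II (20.4% and 20.9%). The SERCA pump Atp2a3 fell from 5.23 ± 0.572 to 1.42 ± 1.47 CPM (log2 fold change -1.89 ± 0.42, edgeR adjusted p = 0.00277), and by 1.84 ± 0.44 under angiotensin II. Calr, the calreticulin gene, fell from 524 ± 27.9 to 350 ± 75.5 CPM (-0.58 ± 0.13, adjusted p = 0.00194) and by 0.55 ± 0.13 under angiotensin II. The transcription factor Nfatc2 fell by 0.51 ± 0.17 untreated, and Mcub, a subunit of the mitochondrial uniporter, by 0.65 ± 0.15 under angiotensin II. By list, the 19 buffers, sensors and effectors gave 2 higher and 6 lower in each condition (4 and 6 with the block). The 7 mitochondrial genes gave 0 higher and 4 lower untreated (2 and 4 with the block) and 0 higher and 2 lower under angiotensin II (0 and 3). Kcnh2, the ERG potassium channel, named after its values were seen, stood at 8.82 ± 2.02 CPM in untreated controls and rose by 0.88 and 0.90 (adjusted p = 0.0117 and 0.0101).

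**Figure D4:**
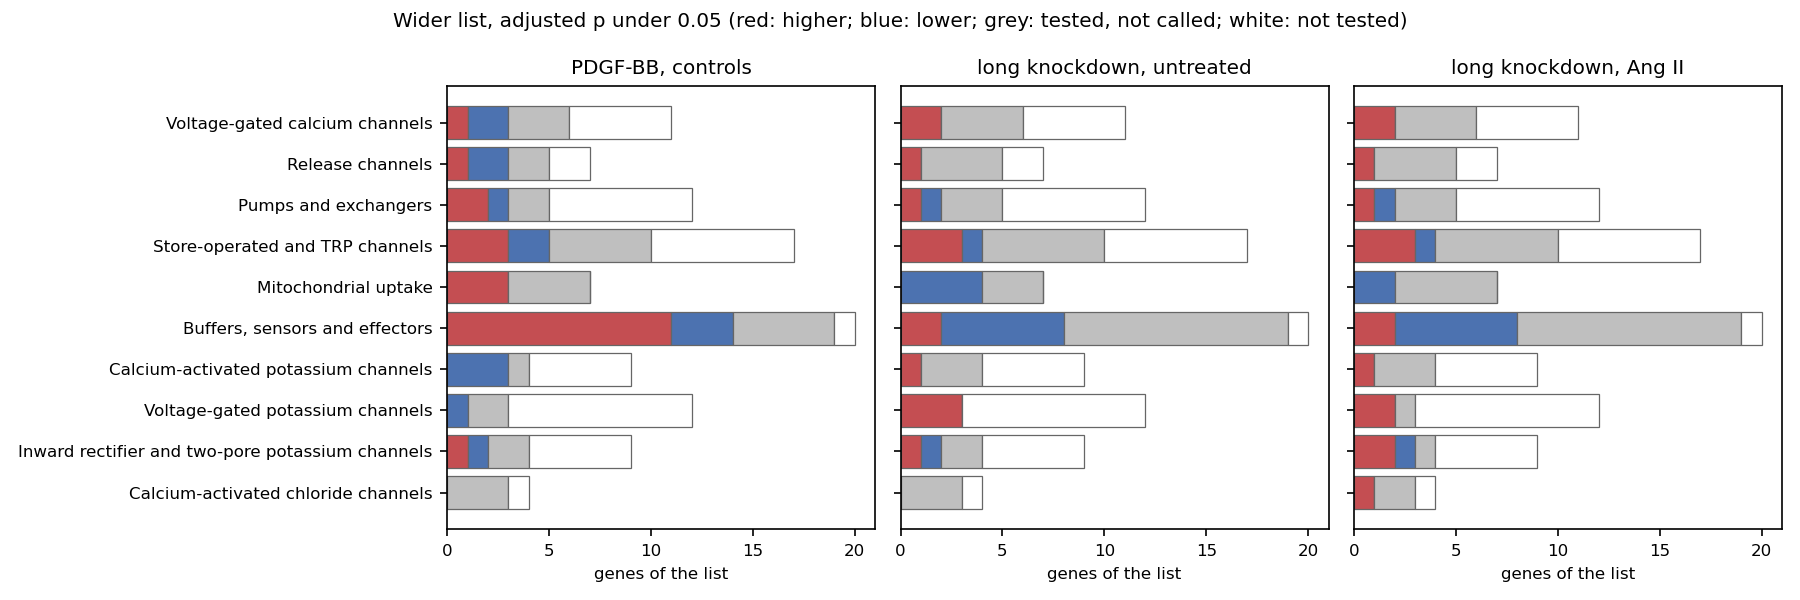
Number of genes of each of the 10 further lists that were higher (red), lower (blue), tested and not called (grey) or not tested (white) in 3 comparisons of run 3, at an adjusted p of 0.05. Buffers, sensors and effectors show 11 higher and 3 lower with PDGF-BB and 2 higher and 6 lower in each long knockdown comparison.

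Angiotensin II, a vasoconstrictor peptide, gave no call among the 8 genes. In control cells against no treatment, in knockdown cells against no treatment, and in the interaction of both factors, 0 of 8 were called, and 0% of all 15103 genes were called in each. At an unadjusted p under 0.05, 156, 174 and 166 genes passed in edgeR, and DESeq2 called 1, 0 and 2 genes. With the replicate block 262, 324 and 326 genes passed, and 0 were called in each. All these edgeR counts are fewer than evenly spread p-values would give over 15103 genes. The largest differences among the 8 genes were 0.31 ± 0.21 for Orai1 in controls, where each of 4 batches was higher, and -0.26 ± 0.11 for Trpc1 in knockdown cells, where each was lower (edgeR adjusted p of 1 for both when rounded). For Orai1 the interaction, the test of whether knockdown acts differently with and without the peptide, gave -0.41 ± 0.31, so its call under angiotensin II alone is not shown to differ from the untreated comparison. With a library left out that interaction lay between -0.60 and -0.25. The interaction was -0.27 ± 0.16 for Trpc1, 0.17 ± 0.10 for Itpr1 (0.11 to 0.22 with a library left out) and 0.10 ± 0.10 for Atp2b1.

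In run 2, the edgeR fit without the replicate block called none of the 8 genes in either comparison, whereas other fits called some of them. For the libraries labelled total CASC15 knockdown, 0 of 8 were called, beside 2.07% of all 15350 genes. With the block, which for this comparison was added after the data were seen, 1 was higher and 2 lower, beside 8.76% and 5.63% of all genes. Atp2b1 held 661 and 727 CPM in those libraries (P17, P18) and 484 and 485 in their controls, a difference of 0.52 ± 0.43 without the block (edgeR adjusted p = 0.709) and 0.52 with it (0.00514). That SE rests on the spread within all groups of run 2. Atp2b1 ranged from 235 to 494 CPM with the control plasmid and 163 to 403 with overexpression. Itpr1 held 64.9 and 75.4 CPM against 85.8 and 107 (-0.46 ± 0.28, adjusted p = 0.587, or 0.0144 with the block). Stim1 held 52.6 and 40.1 against 62.2 and 59.4 (-0.39 ± 0.17, adjusted p = 0.383, or 0.0236 with the block). With 1 library left out, the Stim1 value without the block was -0.61 without knockdown replicate 1 and -0.21 without replicate 2, and that of Itpr1 was -0.30 without control replicate 2. In a fit of only the groups compared Atp2b1 was called too (0.51, edgeR adjusted p = 0.046), beside 1079 of all 14695 genes in that fit. The groups did not overlap for these 3 genes, nor for Cacna1c and Trpc1. With 2 libraries on each side groups lie apart easily, and the share of all genes without overlap was not counted. The leukocyte markers summed to 17.4 to 21.0 CPM in these libraries and 0.579 to 0.79 in their controls, mostly Cd68 (15.8 CPM), while Ptprc and Adgre1 never exceeded 3 counts. Endothelial markers summed to 5.72 to 9.5 CPM and 2.76 to 3.85, with Cdh5 and Tie1 at or under 3 counts, and the 5 proliferation genes to 62.0 to 120 and 21.2 to 33.5. Skeletal and cardiac muscle markers, with Myh6 and Myog at or under 3 counts, summed to 11.03 to 15.0 CPM in these libraries and 5.19 to 5.97 in their controls. Fibroblast markers summed to 2640 to 2768 and 2943 to 2985, also without overlap, and smooth muscle markers to 685 to 745 against 683 in both controls. Their part in the result was not tested.

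Overexpression of total CASC15 against the control plasmid gave 0 of 8 called, beside 1.65% of all genes, and 4 of 8 with the block, 2 higher and 2 lower, beside 9.40% and 8.33%. Atp2b4 rose the most in that blocked fit. It held 24.2, 27.6 and 10.5 CPM with overexpression (P17 to P19) and 5.54, 8.58 and 5.73 with the control plasmid, without overlap. The difference was 1.65 ± 0.38 without the block (edgeR adjusted p = 0.0705) and 1.60 with it (0.00125). Without batch P19 the Atp2b4 value was 1.88 (adjusted p = 0.0143), without overexpression replicate 3 it was 1.96 (0.0118), and DESeq2 gave 1.65 (0.000689). Stim1 held 41.7, 37.0 and 33.4 CPM against 58.2, 57.8 and 45.9 (-0.53 ± 0.14, edgeR adjusted p = 0.111, or 0.00194 under the block), with a value of -0.63 (0.0331) without plasmid control replicate 3 and -0.53 (0.0278) with DESeq2.

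Atp2a2 held 294, 340 and 349 CPM with overexpression and 243, 260 and 293 with the control plasmid (0.30 ± 0.12, edgeR adjusted p = 0.261, or 0.0363 with the block). The groups lay less than 1 CPM apart at their nearest libraries. Atp2b1 held 339, 403 and 163 CPM against 492, 494 and 235, lower in 3 of 3 batches with overlapping groups (-0.43 ± 0.35, adjusted p = 0.611, or 0.00318 with the block). Without the block that value lay between -0.71, without plasmid control replicate 3, and -0.14, without overexpression replicate 3. Cacna1c, Itpr1, Orai1 and Trpc1 were called in neither fit. The 5 proliferation genes summed to 94.5, 145 and 407 CPM with overexpression and 48.5, 63.7 and 276 with the control plasmid, and rose, 5 of 5, only with the block, when 9.40% of all genes were higher. Neuron and glia markers, with Rbfox3 and Snap25 at or under 3 counts, summed to 0.676 to 1.08 CPM with overexpression and 1.25 to 2.75 without, and the sums of the other 5 marker lists overlapped. Their part in the result was not tested.

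Of the further genes, 71 were tested in run 2. In the libraries labelled total knockdown 2 were called, beside 2.07% of all genes, and 15 with the block, beside 14.4%. With overexpression 4 were called, beside 1.65%, and 22 with the block, beside 17.7%. In the former Cacna2d1 fell from 111 ± 27.5 to 46.7 ± 2.12 CPM (log2 fold change -1.25 ± 0.21, edgeR adjusted p = 0.0199), and Atp2a1, the skeletal muscle SERCA pump, rose from 0.356 ± 0.125 to 6.45 ± 2.72 CPM (4.16 ± 0.87, adjusted p = 0.0452). With overexpression Kcnj2 rose from 4.08 ± 1.9 to 17.3 ± 1.06 CPM (2.08 ± 0.33, adjusted p = 0.016). The calcium-activated chloride channel Ano1 fell from 196 ± 3.91 to 121 ± 11.3 CPM (-0.70 ± 0.10, adjusted p = 0.00835). The pore gene Cacna1c, partner of Cacna2d1, held 4.11 and 3.54 CPM in the labelled knockdown libraries and 4.68 and 6.52 in their controls (-0.55 ± 0.66, adjusted p = 0.814, or -0.30 without control replicate 2).

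For each gene called in run 3, the genes most alike across its 20 libraries were found by Pearson's r of log2(CPM + 0.5), as a description with no test. The 20 libraries fall in 5 groups of 4 and share batches, so the points are not independent. Atp2a2 was most like the tubulin ligase family gene Ttll12 (r = 0.987) and Srebf1, the sterol regulator (0.983). Atp2b1 was most like Paip2 (0.972), which restrains translation, and the peroxiredoxin Prdx2 (0.963). Itpr1 went with Nop53 and Pcdhb15 (both 0.968), Stim1 with Fam120b (0.964) and the histone methyltransferase Kmt5b (0.96), and Cacna1c with Glis3 (0.927) and Pptc7 (0.926). The values were lower for Orai1, with Tulp3 (0.892) and Zdhhc3 (0.887), and for Atp2b4, with the actin-sensing cofactor Mrtfa (0.827) and Gpi1 (0.824).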

How the data were processed

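The authors deposited RSEM expected counts per gene for 30 RNA-seq libraries of 2 sequencing runs, 10 in run 2 and 20 in run 3. The submitters' processing notes name STAR 2.7.11b, RSEM 1.3.1 and the builds GRCm39 and mm10, without saying which build gave these counts. The annotation and the use of strand are not given in the sources used here, so reads of overlapping or antisense genes, and of near-identical copies shared out by RSEM, cannot be told apart. Symbols and lengths came from GENCODE M21, which matched 51486 of 78334 identifiers and 98.7% of counts. Promoters came from RefSeq (GRCm38.p6).

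Expected counts were rounded to whole numbers and fitted with edgeR 4.0.16 (R 4.3.3, limma 3.58.1) by the quasi-likelihood test, with TMM scaling, robust estimation, a filter at 10 counts (15 in total), all groups of a run in 1 fit and each run on its own. Calls used a Benjamini-Hochberg adjusted p under 0.05. CPM is the count per 1000000 of the library total after TMM scaling, and RPKM divides it by the length of all exons in kilobases. The SE of a fold change is its size divided by the square root of the F statistic. Genes at 3 counts or fewer are called at the limit of detection.

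The 10 genes, the 108 further genes and the tests were chosen with earlier results of these data known. From the further genes the text names, in each comparison, up to 4 called genes per direction with the largest change and a mean of at least 1 CPM, and for each of the 10 genes called in run 3 the 2 genes with the highest r among those with a mean of at least 5 CPM. Some genes of the lists are not reported here.

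Replicate numbers run with the labels' batch, which makes them pairs. Deviations from the group means correlated at a mean r of 0.255 to 0.591 within a batch and -0.356 to -0.0735 between batches. Alternatives were DESeq2 1.42.0, RLE scaling, no filter, a filter at a mean of 1 CPM, only the groups compared, the batch as a replicate block, no batch P19, each library left out, and another gene length. The block for the libraries labelled total knockdown was chosen after seeing the data.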

Additional observations from a re-analysis of the deposited data

Results flagged for a closer look

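In the long CASC15 knockdown group under angiotensin II, the Atp2b1 level of replicate 4, from batch P19, stood apart at 1007 CPM from the other 3 libraries at 872 to 887. The gap to the nearest library was 0.889 of the range of the group, above the 95% critical value for 4 samples. In all, 40 groups of 4 libraries were examined, and chance alone flags about 1 in 20 of such groups. Without that batch the Atp2b1 log2 fold change of knockdown under angiotensin II was 0.96, against 1.04 with it.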

How the results depend on the processing

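Counts were too few to test Kcnma1 and Kcnmb1, at 0 in 23 and 30 of 30 libraries, and were low for Cacna1c, at about 1 CPM in run 3. Recomputed fold changes were tallied for the 8 genes in 5 comparisons and for a few of the angiotensin II and interaction values. Of these, 578 kept their direction and side of the threshold, 28 gained a call, 21 lost one and 23 changed sign. The other angiotensin II and interaction values are outside this tally. In the PDGF-BB comparison 3 of 8 genes were called in a fit of only the groups compared, beside 44.8% of all genes, and 3 to 5 with single libraries left out, beside 36.5% to 43.1%. For long knockdown, the replicate block gave 6126 genes untreated and 6238 under angiotensin II (3783 and 4033 without it), and leaving out batch P19 gave 6062 untreated. Angiotensin II in controls gave 1 gene with DESeq2 and 1 with only the groups compared, and the interaction 2 and 1. For the libraries labelled total knockdown, 317 genes became 715 with DESeq2, 1325 with no filter, 190 with the CPM filter, 2209 with the replicate block, 1079 with only the groups compared and 4 to 188 with a library left out, where the lone library of a group is assumed to vary like the other groups. Of the 8 genes, 3 were called with the block and 1, Atp2b1 at 0.51, with only the groups compared. For overexpression, 253 of 15350 genes became 802 of 19962 with DESeq2 and 1363 of 29867 with no filter. In each of these fits 2 of the 8 genes were called. The block called 2721 of 15350 genes and 4 of the 8, and only the groups compared 66 of 13815 and 0 of the 8. Without P19, 844 of 15164 genes and 1 of the 8 were called. With a library left out, 86 to 867 genes (0.56% to 5.69%) and 0 to 1 of the 8 were called. Signs turned, with no call on either side, for Atp2b4 in long knockdown without P19 (-0.19 untreated, 0.055 under angiotensin II) and Itpr1 in overexpression with the block (-0.007). Without P19 signs of the angiotensin II difference turned for Atp2b4 in controls (0.19 to -0.00086) and Orai1 in knockdown cells (-0.10 to 0.087). Signs of the interaction turned there for Cacna1c (-0.090 to 0.26) and Atp2b4 (-0.069 to 0.25). With single libraries left out they turned for Trpc1 under PDGF-BB (-0.049 to 0.11) and in untreated long knockdown (-0.023 to 0.076), and for Atp2b4 in long knockdown (-0.12 to 0.15 untreated, -0.15 to 0.10 under angiotensin II) and for Atp2b4 with the total knockdown label (-0.40 to 0.46). In overexpression they turned for Cacna1c (-0.90 to 0.44), Itpr1 (-0.27 to 0.20) and Trpc1 (-0.34 to 0.51). The replicate block changed no other call among the 8 genes than those given beside the results. The libraries labelled total knockdown hold no P19 library, so that setting could not be fitted there. The causes of these differences were not tested.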
